A study of Homo sapiens with 6 samples.

Results

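The genes described here are 5 that carry or partner an ADP-ribosyltransferase and are commonly counted among the interferon-stimulated genes, PARP9, DTX3L, PARP14, PARP10 and PARP12, together with PARP1, the main DNA-damage PARP, taken as a reference gene outside that response. They were picked by symbol, with earlier results of these data known, and all 6 were found among the 20802 genes measured. The levels came from libraries labelled MCF10A, a non-tumorigenic human mammary epithelial cell line. They were measured by Ion AmpliSeq Transcriptome sequencing, which counts the reads of 1 short PCR product for each gene. By their labels, 2 of the 6 libraries were of the parental line (MCF10A WT) and 2 of MCF10A stably overexpressing eGFP (MCF10A eGFP). The last 2 were of MCF10A stably overexpressing GIRK1, the potassium channel subunit encoded by KCNJ3 (MCF10A GIRK1). The GIRK1 plasmid also expressed eGFP, so both stable lines carried the fluorescent protein, had been selected with G418 and were sorted as fluorescent cells. No interferon or other agent is named for any group. The design text of the series speaks of 2 lines overexpressing KCNJ3 and of 2 control lines, while the sample titles only number the libraries and the methods describe 1 way of making each stable line and 2 replicates. Whether the 2 libraries of a condition are separately made lines or repeats of 1 line is therefore unclear, and the p-values measure the spread between these libraries, which may be technical.

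PARP enzymes take NAD and attach ADP-ribose to proteins or nucleic acids, PARP1 as long chains at DNA breaks and most of the other members of the family as single units. Type I and type II interferons act through JAK kinases on STAT proteins, which together with IRF9 bind the interferon-stimulated response element (ISRE) in the promoters of their target genes, while STAT pairs bind the gamma-activated site (GAS). PARP9 and the E3 ubiquitin ligase DTX3L form a complex, PARP14 carries macrodomains that recognise ADP-ribose, and PARP10 and PARP12 add single ADP-ribose units to proteins, PARP12 with zinc fingers that bind RNA.

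The promoters of the members are shown first because 4 of the 5 interferon-linked genes share a short element there and PARP1 does not. RefSeq promoter windows of 300 bases (250 before and 50 after the start, GRCh38.p14) were matched by symbol for 5 of the 6 members, and PARP10 was the member not matched. The windows were searched on both strands for the ISRE core GAAANNGAAA and the GAS core TTCNNNGAA, which reads the same on both strands. Capitals mark the matches, and each line runs 5′ to 3′ on the strand of its gene. PARP9 and DTX3L are shown over the same 50 bases, chr3:122564301-122564350, on the minus and the plus strand. The other stretches are the 60 bases that end just before the start, for PARP14 chr3:122680779-122680838 on the plus strand, for PARP12 chr7:140062952-140063011 on the minus strand and for PARP1 chr1:226408094-226408153 on the minus strand.
DTX3L: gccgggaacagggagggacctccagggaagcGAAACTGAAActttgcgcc
PARP9: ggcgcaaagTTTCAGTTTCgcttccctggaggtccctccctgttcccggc
PARP14: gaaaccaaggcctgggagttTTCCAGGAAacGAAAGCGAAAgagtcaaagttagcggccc
PARP12: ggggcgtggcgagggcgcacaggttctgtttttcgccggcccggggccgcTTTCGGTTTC
PARP1: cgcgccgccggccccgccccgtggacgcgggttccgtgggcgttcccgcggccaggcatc

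PARP9 and DTX3L are transcribed away from each other, and their RefSeq starts, at bases 122564300 and 122564338, lie 38 bases apart. The ISRE core in their windows is a single site read from both sides, at chr3:122564332-122564341. It begins at base -41 from the start of PARP9 and at base -6 from that of DTX3L. A second RefSeq start of PARP9 has neither core in its window. PARP14 has an ISRE core beginning at base -29 and, 2 bases before it, a GAS core that begins at base -40. PARP12 has an ISRE core in its last 10 bases before the start, beginning at base -10. The PARP1 window holds neither core. Of all 35116 promoter windows of this length, 3.57% hold the ISRE core and 7.66% the GAS core. Counted by gene, with any window of a gene, the shares are 4.38% and 9.38% of 27305 genes. A match describes letters in the window and was not tested as a binding site.

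The depth was 2506120 and 16040556 reads for WT replicates 1 and 2, 5126930 and 10233974 for eGFP, and 11107309 and 10346572 for GIRK1, so that 3 reads equal 0.187 to 1.20 RPM, the count of a gene scaled to the total reads of its library. KCNJ3 had 2408 and 3677 reads in the GIRK1 libraries, 0 in both eGFP libraries and in WT replicate 2, and 48 in the library labelled WT replicate 1. That library stood apart. Its 9 luminal markers summed to 16395 RPM against 531 to 1024 RPM in the other 5 libraries, where 4 of them, ESR1, PGR, TFF1 and KRT19, were at 0 reads. Its 7 basal markers summed to 342 RPM against 8288 to 16469 RPM, with TP63 at 0 reads in all 6. The luminal and basal markers of WT replicate 1 thus go against its MCF10A label. Which cells it came from was not tested. The 6 haematopoietic markers summed to 0.399 RPM in WT replicate 1 and 22.3 to 45.8 RPM elsewhere, with PTPRC and CD3E among those at 0. The 6 fibroblast markers summed to 31.9 and 33.5 RPM in the GIRK1 libraries and 8.60 to 15.6 RPM in the others, with COL1A2 and PDGFRA at 0. The difference in the fibroblast sum lay mostly in DCN, which was higher in GIRK1 than in eGFP by 3.37 on the log2 scale (SE 0.51, edgeR adjusted p = 0.0376). DCN was at 0.780 and 3.71 RPM in eGFP and 10.2 RPM in WT replicate 2. With these 3 libraries as 1 control group its difference was 2.29 and did not pass (SE 0.66, edgeR adjusted p = 0.145). The part of DCN in the results below was not tested. WT replicate 1 is therefore shown apart, and all tests below use the other 5 libraries, with WT replicate 2 and both eGFP libraries as the 3 controls. In bulk RNA, more cells of one state and more RNA per cell cannot be told apart.

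PARP9, DTX3L, PARP14 and PARP10, 4 of the 5 interferon-linked genes, rose in GIRK1 against eGFP, by 1.90 to 5.08 on the log2 scale. PARP12 missed the adjusted threshold, and PARP1 did not pass the test. Of the 11389 genes tested by edgeR's quasi-likelihood test, 176 passed an adjusted p of 0.05 in either direction, which is 1.55%, and 88 of them were higher in GIRK1, which is 0.773%. Because the members were chosen with earlier results of these data known, the excess over these shares is a description and not a test. All 6 members passed the filter on low counts, PARP9 with 2 of the 3 controls at or above the filter level and the other members with all 3.

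**Figure D1:**
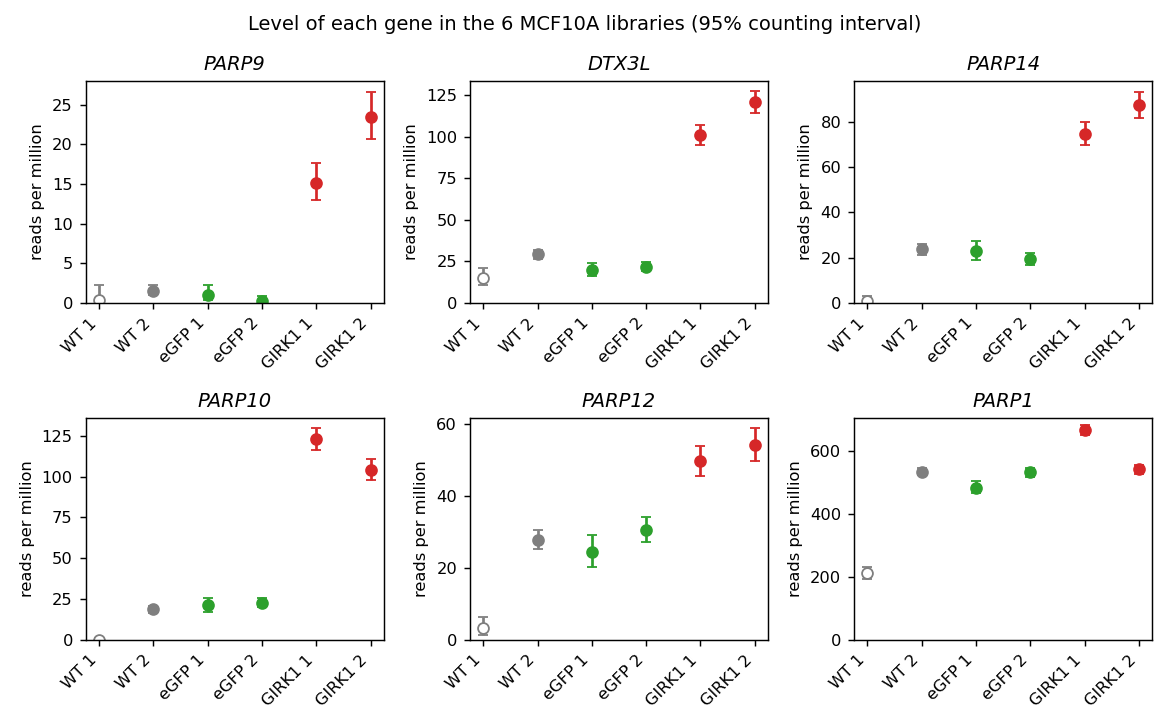
Level of each of the 6 genes in RPM (vertical axes from 0, a scale of its own in each panel) in the 6 libraries, with WT in grey, eGFP in green, GIRK1 in red and WT replicate 1 as an open circle. Bars are exact 95% intervals that cover counting error only, drawn to the level of 3 reads where a library had 0, and for PARP9 the GIRK1 libraries sit at 15.1 and 23.5 RPM above controls of at most 1.56 RPM.

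PARP9, a macrodomain protein that works in a complex with DTX3L, was the member with the fewest reads. It had 168 and 243 reads in the GIRK1 libraries, 5 and 3 in the eGFP libraries, 25 in WT replicate 2 and 1 in WT replicate 1. In RPM these were 15.1 and 23.5 in GIRK1, 0.975 and 0.293 in eGFP, 1.56 in WT replicate 2 and 0.399 in WT replicate 1. Both GIRK1 libraries were far above every control, with the lower of them 9.70 times the highest of the 3 controls. The log2 fold change against eGFP was 5.08 (SE 0.60, edgeR adjusted p = 0.0162). Because eGFP rests on 8 reads in all against 411 in GIRK1, the ratio of pooled reads per total reads was 36.8 with a 95% counting interval of 18.5 to 85.8. Against all 3 controls the log2 fold change was 4.26 (SE 0.53, edgeR adjusted p = 0.0152).

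DTX3L, the ubiquitin ligase that pairs with PARP9, was at 101 and 121 RPM in GIRK1 (1120 and 1249 reads). It was at 19.7 and 21.8 RPM in eGFP, 29.3 RPM in WT replicate 2 and 15.2 RPM in WT replicate 1. The groups did not overlap, and the lower GIRK1 library was 3.44 times the highest control. The mean was 111 RPM ± 14.1 (SD, n = 2) in GIRK1 and 20.7 RPM ± 1.48 (SD, n = 2) in eGFP. The log2 fold change against eGFP was 2.38 (SE 0.22, edgeR adjusted p = 0.00681), and against the 3 controls it was 2.21 (SE 0.21, edgeR adjusted p = 0.00533).

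The fitted change of PARP9 was larger than that of DTX3L, the gene it faces, and the ratio of their reads was taken in each library. PARP9 had 15.0 and 19.5 reads per 100 DTX3L reads in the GIRK1 libraries, with exact 95% counting intervals of 12.7 to 17.7 and 16.9 to 22.3. It had 4.95 (1.57 to 11.9) and 1.35 (0.275 to 3.98) in eGFP and 5.32 (3.41 to 7.95) in WT replicate 2. Each GIRK1 interval lay above all 3 control intervals. In WT replicate 1 the value was 2.63 from 1 PARP9 read, with an interval of 0.0649 to 15.6. The log2 ratio was higher by 2.38 in GIRK1 than in the 3 controls, with a two-sided exact permutation p of 0.2, the smallest that 2 against 3 libraries allow. The ratio was taken after the larger change of PARP9 had been seen, and this p cannot decide, so the ratio is a description.

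**Figure D2:**
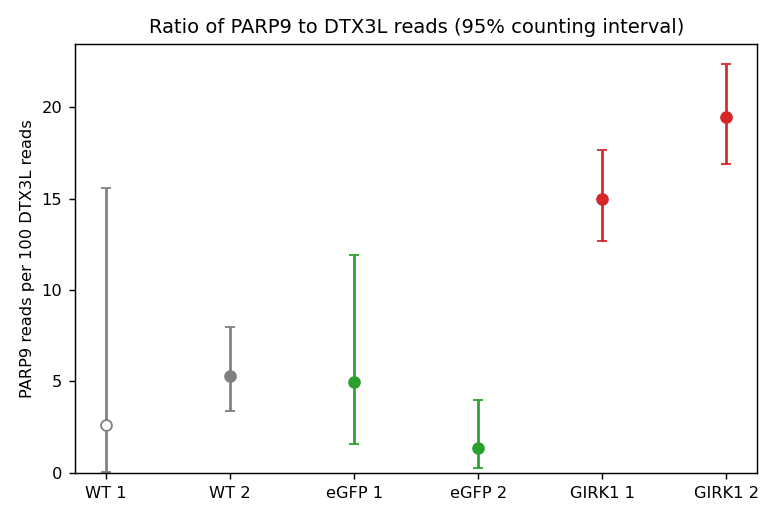
PARP9 reads per 100 DTX3L reads (vertical axis) in each of the 6 libraries (horizontal axis), with exact 95% counting intervals as bars and WT replicate 1 as an open circle. The GIRK1 libraries are at 15.0 and 19.5, and the 3 controls at 1.35 to 5.32.

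PARP14, a macrodomain PARP, was at 74.8 and 87.6 RPM in GIRK1 (831 and 906 reads). The controls were at 23.0 and 19.3 RPM in eGFP and 23.7 RPM in WT replicate 2, while WT replicate 1 had 2 reads, or 0.798 RPM. The 3 controls lay close together, and the lower GIRK1 library was 3.16 times the highest of them. The log2 fold change was 1.90 against eGFP (SE 0.25, edgeR adjusted p = 0.0224) and 1.86 against the 3 controls (SE 0.19, edgeR adjusted p = 0.00782).

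PARP10, a mono-ADP-ribosyltransferase, was at 123 and 104 RPM in GIRK1 (1366 and 1080 reads). It was at 21.1 and 22.6 RPM in eGFP and 18.6 RPM in WT replicate 2, and had 0 reads in WT replicate 1, which allows a level of up to 1.20 RPM there (3 reads). The lower GIRK1 library was 4.62 times the highest of the 3 controls. The log2 fold change was 2.34 against eGFP (SE 0.22, edgeR adjusted p = 0.00658) and 2.43 against the 3 controls (SE 0.18, edgeR adjusted p = 0.00194).

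PARP12, the zinc-finger member, had the smallest difference of the 5. It was at 49.5 and 54.1 RPM in GIRK1, 24.4 and 30.5 RPM in eGFP, 27.7 RPM in WT replicate 2 and 3.19 RPM in WT replicate 1. Both GIRK1 libraries were above the 3 controls, the lower one 1.62 times the highest control. The log2 fold change against eGFP was 0.88 (SE 0.22, 95% interval 0.35 to 1.40) with an edgeR adjusted p of 0.115, and against the 3 controls 0.89 (SE 0.17, 95% interval 0.49 to 1.30) with an edgeR adjusted p of 0.0667. Both intervals lie above 0, and neither comparison passed the threshold over all genes in edgeR. Against the 3 controls PARP12 passed with DESeq2 (adjusted p = 0.0015), with no filter, with the replicate block and without eGFP replicate 1, and against eGFP it passed without eGFP replicate 2.

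PARP1, the enzyme that senses DNA breaks, was at 666 and 541 RPM in GIRK1, 484 and 532 RPM in eGFP, 534 RPM in WT replicate 2 and 211 RPM in WT replicate 1. The lower GIRK1 library was 1.01 times the highest of the 3 controls, a gap smaller than that between the GIRK1 libraries. The log2 fold change was 0.21 against eGFP (SE 0.21, 95% interval -0.30 to 0.71, edgeR adjusted p = 0.626). Set against PARP1 in the same library, PARP14 had 11.2 and 16.2 reads per 100 PARP1 reads in GIRK1 and 3.62 to 4.76 in the 3 controls. For PARP12 the corresponding values were 7.44 and 10.0 in GIRK1 and 5.04 to 5.73 in the controls. Both genes thus kept the separation between the groups when scaled to PARP1.

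All 6 members, PARP1 included, had both GIRK1 libraries above all 3 controls. Of all genes tested 2458 did so, which is 21.6%, so this ordering on its own says little, and the size of the gap (1.01-fold for PARP1, 1.62-fold to 9.70-fold for the other 5) is what differs among the members. Against the 3 controls as 1 group, the same 4 members passed, where 1.21% of the genes passed in either direction and 0.799% were higher in GIRK1.

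The comparison with the parental line has a single library on the WT side, whose spread is assumed to be that of the other groups. Against WT replicate 2 the log2 fold changes were 3.64 for PARP9, 1.94 for DTX3L, 1.80 for PARP14, 2.63 for PARP10 and 0.92 for PARP12. Of these only PARP10 passed (SE 0.29, edgeR adjusted p = 0.0261), where 0.237% of the genes passed in either direction and 0.202% were higher in GIRK1. The adjusted p-values were 0.0772 for DTX3L, 0.153 for PARP14, 0.156 for PARP9 and 0.473 for PARP12 in the same edgeR fit. This count rose from 1 to 4 with the DESeq2 test and to 5 in a fit of the GIRK1 and WT libraries alone.

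eGFP against WT replicate 2 gives the background measured the same way. No gene passed in edgeR (0% of 11389, with 377 genes at an unadjusted p under 0.05, and 5 genes called by DESeq2). Without eGFP replicate 2, when each of these conditions has 1 library, 1091 genes passed, 615 higher and 476 lower in eGFP. The members differed by -1.44 on the log2 scale for PARP9, -0.44 for DTX3L, -0.11 for PARP14, 0.29 for PARP10, 0.05 for PARP12 and -0.01 for PARP1. The PARP9 difference rests on 8 eGFP reads and its 95% interval was -3.23 to 0.34.

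**Figure D3:**
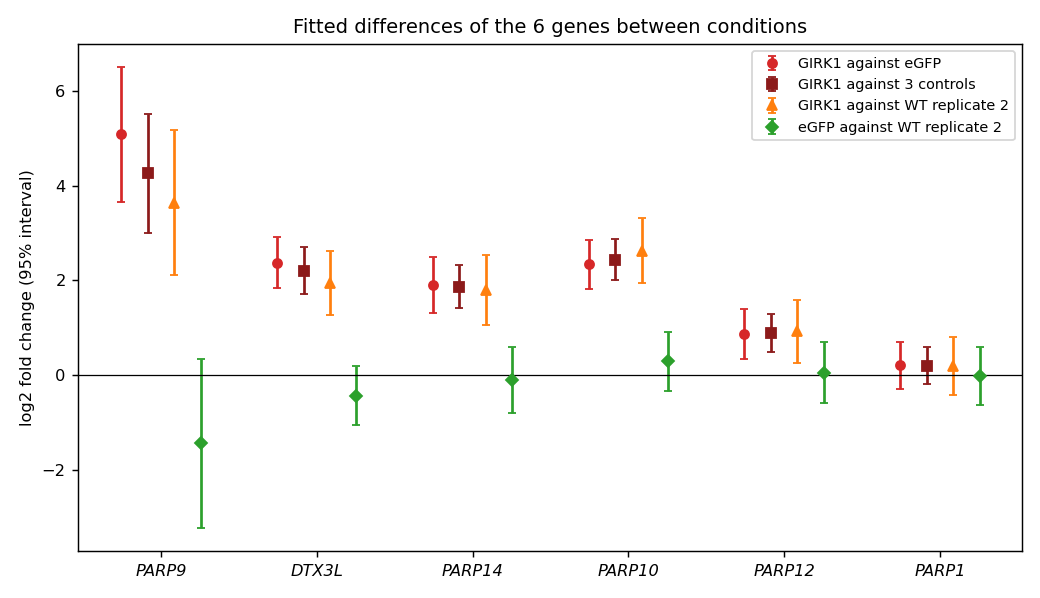
Fitted log2 fold change (vertical axis, bars are 95% intervals) of each of the 6 genes (horizontal axis) in the comparisons of GIRK1 with eGFP, with the 3 controls and with WT replicate 2, and of eGFP with WT replicate 2. The comparisons share libraries, and for PARP1 the interval of every comparison spans 0.

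Among the rest of the PARP family 1 gene passed by edgeR and a second, PARP6, by DESeq2. Of 12 other PARP genes, 11 had enough reads for the test, and PARP15, which lies between DTX3L and PARP14, had 0 reads in all 6 libraries. In GIRK1 against eGFP 1 of the 11 passed as higher and 0 as lower, with a median log2 fold change of 0.15 against 0.0098 over all genes tested. The one that rose was ZC3HAV1, the catalytically inactive antiviral member that binds RNA and is also called PARP13. It was at 152 and 160 RPM in GIRK1, 47.8 and 43.0 RPM in eGFP and 35.4 RPM in WT replicate 2, a log2 fold change of 1.74 (SE 0.21, edgeR adjusted p = 0.0194). None of the other PARP genes with a promoter window, 10 of the 12, has the ISRE core in it, and 3 of them, ZC3HAV1, PARP2 and PARP15, have a GAS core.

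PARP6 came next at 1.46 (SE 0.35, edgeR adjusted p = 0.102), and its eGFP libraries were far apart, at 27.7 and 61.0 RPM. It passed with DESeq2 (adjusted p = 0.00264), with no filter, with the replicate block, by the 2-fold rule of the study and without either eGFP library, its log2 fold change being 1.05 without eGFP replicate 1 and 2.07 without eGFP replicate 2. At the other end were TIPARP, at -0.79 (SE 0.25), and PARP2, the second DNA-break PARP, at -0.65 (SE 0.24), neither of which passed, though TIPARP did without eGFP replicate 2.

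**Figure D4:**
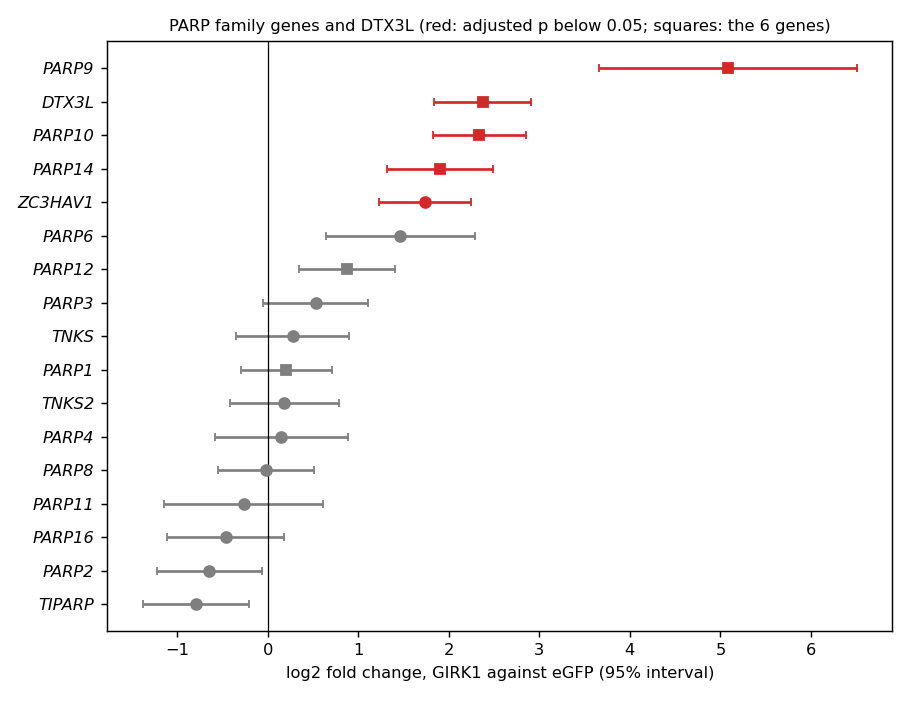
Log2 fold change of GIRK1 against eGFP (horizontal axis, bars are 95% intervals) for PARP1, DTX3L and the 15 other PARP genes with enough reads for the test. Squares are the 6 genes described here, red marks an adjusted p below 0.05, and PARP9 at 5.08 is the highest of the 17 genes shown.

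Genes of interferon signalling were described from a list of their own. Of its 7 genes, 6 had a promoter window, STAT2 and IRF9 among them, and 0 of these held the ISRE core. IRF1 and IRF9 had a GAS core. The ISRE core was thus not shared by all genes that rose. STAT2, a transcription factor of the type I response, was at 116.7 and 142.8 RPM in GIRK1, 30.0 and 30.7 RPM in eGFP and 28.2 RPM in WT replicate 2, a log2 fold change of 2.05 (SE 0.22, edgeR adjusted p = 0.0120). IRF9, its DNA-binding partner, was at 110 and 151 RPM in GIRK1, 15.6 and 13.0 RPM in eGFP and 14.8 RPM in WT replicate 2, a log2 fold change of 3.15 (SE 0.28, edgeR adjusted p = 0.00588). IRF1 at 0.92, JAK1 at 0.66, JAK2 at 0.21 and TYK2 at -0.58 did not pass, though JAK1 and TYK2 did without eGFP replicate 2 and IRF1 without eGFP replicate 1.

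Lists on the ADP-ribose and NAD side and of break repair had no gene that passed in the main edgeR fit. Of the 4 other Deltex ligases, 3 were tested and 0 passed (DTX1 had 0 reads in all 6 libraries). Of 10 genes for ADP-ribose removal and macrodomain proteins, 9 were tested and 0 passed, with 1 at an unadjusted p under 0.05, the histone gene H2AFY at -0.58. Of 10 genes for NAD supply, 7 were tested and 0 passed, and 0 were at an unadjusted p under 0.05. NAMPT, which makes the NAD precursor, was at 438 and 416 RPM in GIRK1 but 461 and 913 RPM in eGFP and 983 RPM in WT replicate 2, a log2 fold change of -0.71 (SE 0.31). Of 8 partners of PARP1 in break repair, 7 were tested and 0 passed, APTX being highest at 1.27 (SE 0.28, edgeR adjusted p = 0.0920). APTX passed with DESeq2, with no filter, with the replicate block, by the 2-fold rule of the study and without either eGFP library. Without eGFP replicate 2, genes of each of these lists passed, among them DTX2, H2AFY, NMNAT2 and TDP1, and without eGFP replicate 1 NAMPT did.

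None of the neighbouring genes with enough reads passed the test. PARP9, DTX3L and PARP14 lie within a single stretch of chromosome 3, at chr3:122527924-122564577, chr3:122564238-122575203 and chr3:122680618-122730840 in the GENCODE annotation of GRCh38. PARP10 lies at chr8:143977153-144012772, PARP12 at chr7:140023744-140063721 and PARP1 at chr1:226360691-226408079. The 3 nearest measured protein-coding genes on each side of each member made 25 genes that are no members, of which 16 had enough reads. None of these 16 passed in GIRK1 against eGFP by edgeR (2 at an unadjusted p under 0.05), and their median log2 fold change was -0.03 with a range of -0.66 to 1.11. Next to PARP9, KPNA1 was at -0.15 (SE 0.19), and next to PARP14, HSPBAP1 was at 0.23 (SE 0.29). The 2 genes at an unadjusted p under 0.05 both lie on the same side of PARP10. They were GRINA, which overlaps PARP10 and was the highest of the 16, at 1.11 (SE 0.26, edgeR adjusted p = 0.104), and OPLAH at 0.87 (SE 0.26, edgeR adjusted p = 0.156). Against the 3 controls GRINA was at 1.05 (edgeR adjusted p = 0.0795). In both genes each GIRK1 library was above all 3 controls, as in 21.6% of the genes tested. Neighbours are given for the main fits only.

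**Figure D5:**
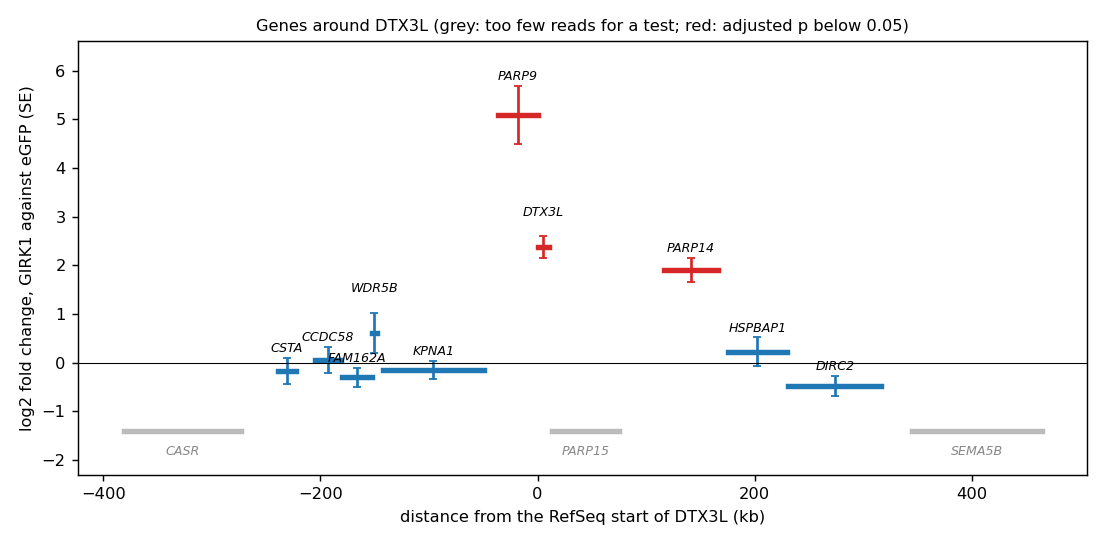
Log2 fold change of GIRK1 against eGFP (vertical axis, bars are SE) of the genes around DTX3L, drawn over their extent in kilobases from the RefSeq start of DTX3L (horizontal axis). Red marks an adjusted p below 0.05, grey marks genes with too few reads for a test, drawn at an arbitrary height, and PARP9, DTX3L and PARP14 stand at 5.08, 2.38 and 1.90 above neighbours between -0.47 and 0.61.

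Genes with a like pattern were sought by Pearson's r of log2(RPM + 1) over the 6 libraries among 3929 genes, where the r describes 6 points that share libraries and depth. PARP9 was nearest to OAS2 (r = 0.994), USP18, EIF2AK2, IFIT1 and LOC553103. DTX3L was nearest to KLHDC7B (r = 0.996), RSAD2, IFIT1, IFIT3 and IFI44L. OAS2, USP18, EIF2AK2, RSAD2, IFIT1, IFIT3 and IFI44L are textbook interferon-stimulated genes, and OAS2 went from at most 1.18 RPM in the controls to 82.5 and 108 RPM in GIRK1. OAS2, KLHDC7B, RSAD2, IFIT1, IFIT3 and IFI44L were at no more than 3.62 RPM outside GIRK1. They met the floor of 50 mean reads only through their GIRK1 reads. Their likeness to members that rose in GIRK1 is therefore a description and adds no support.

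The other 3 interferon-linked members were all low in WT replicate 1, where PARP9 also had only 1 read. PARP14 was nearest to UBE2L6 (r = 0.998), RGS2, NLRC5, B2M and TRIM5. PARP10 was nearest to RGS2 (r = 0.998), ERAP1, ICAM5, TRIM22 and PARP14 itself. PARP12 was nearest to TMTC1 (r = 0.998), TAP1, DSEL and HLA-B among others, of which TAP1 and HLA-B serve antigen presentation. Between PARP9 and PARP14 the r was 0.76 over the 6 libraries and 0.996 over the 5 without WT replicate 1. With PARP1, the r of PARP14 was 0.94 over 6 libraries and 0.64 over 5.

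The members differed in their level in WT replicate 1. DTX3L was at 0.517 times its level in WT replicate 2 there and PARP1 at 0.395 times. PARP9 was at 0.256 times, from 1 read, PARP12 at 0.115 times and PARP14 at 0.0337 times, and PARP10 had 0 reads. STAT2 and ZC3HAV1 were higher in WT replicate 1 than in WT replicate 2, at 45.5 against 28.2 and 52.3 against 35.4 RPM. These are values of 1 library each, with no test.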

How the data were processed

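Total RNA of 6 libraries labelled MCF10A was measured by Ion AmpliSeq Transcriptome sequencing on an Ion S5 XL. The authors used the Ion Torrent suite to map reads to the AmpliSeq transcriptome reference. For 20812 amplicons, 10 of them spike-ins with 0 reads, they deposited whole-number read counts, covering reads and RPM. The RPM that the authors deposited scales each count to the total of its library. Other deposited columns give amplicon position and GC bases. No genome build applies to the amplicons, and how reads from near-identical copies were counted is not given in the sources used here. With 1 amplicon per gene, levels were compared between libraries and not between genes.

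Counts were tested with edgeR 4.0.16 in R 4.3.3 (TMM, filterByExpr, quasi-likelihood, Benjamini-Hochberg over 11389 genes, threshold 0.05), in a fit of 5 libraries with 3 group means and 2 residual degrees of freedom, and in a second fit with 3 pooled controls and 3 residual degrees of freedom. The SE was derived from the F value. Intervals of single libraries are exact and cover counting error only, since reads carry no molecular identifiers. Promoters came from RefSeq, gene positions from GENCODE, neighbours from RefSeq order. Figures were drawn with Python 3.11.15 and matplotlib 3.10.9. The procedure was tested on simulated data.

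The members and lists were chosen with earlier results of these data known. The named genes were the members, listed genes with the lowest adjusted p first, the 3 nearest measured protein-coding genes on each side, and the 5 genes of highest r per interferon-linked member among those with a mean of at least 50 reads and an SD of log2(RPM + 1) of at least 0.5. The files of the GIRK1 libraries carry another tag in their names than the other 4, of a meaning not given in the sources used here, and this and the condition cannot be told apart. A planned comparison of the proteins was not made, and some listed genes are not reported here. The alternatives were DESeq2 1.42.0 (size factors, and its test), total-read and upper-quartile scaling, other filters, covering reads, other sets of libraries, a replicate block, a stricter threshold and the 2-fold rule of the study, which also asks that the coefficient of variation stay under 0.7.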

Additional observations from a re-analysis of the deposited data

How the results depend on the processing

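Depth limits PARP9 above all, with 8 eGFP reads, and it could not be tested where 10 reads were asked of every library. With all 6 libraries in the fit, WT replicate 1 included, 0 interferon-linked members passed in GIRK1 against eGFP, against the 3 controls or against WT replicate 2 (from 4, 4 and 1). Against eGFP 0 listed genes and 0 of all genes passed in that fit, and against the 3 controls 7 of all genes. In the same 6-library fit by edgeR 606 genes had an unadjusted p under 0.05 in GIRK1 against eGFP, where the main 5-library fit had 2175. At an adjusted p below 0.01, 2 members, 2 listed genes beyond the members and, of all genes, 32 higher and 7 lower passed against eGFP, and 0 members against WT replicate 2. Of all genes, 88 were called higher and 88 lower against eGFP. These counts became 313 and 552 with no filter, 57 and 50 with at least 10 reads in every library, 227 and 447 with DESeq2, 185 and 329 with the replicate block, and 627 and 682 by the 2-fold rule of the study, which called DTX3L, PARP14 and PARP10 and missed PARP9 for a coefficient of variation of 0.761 in eGFP and PARP12 for a ratio of 1.89. Members called against WT replicate 2 became 4 with no filter, 4 with DESeq2, 5 with the compared groups alone and 2 with the replicate block.

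Leaving out 1 library at a time gave 4 to 5 members against eGFP (PARP12 joined without eGFP replicate 2), 1 to 5 against the 3 controls and 1 to 5 against WT replicate 2, with the lone library of a group assumed to vary like the others. Against the 3 controls the count fell to 2 without eGFP replicate 2 (PARP9 and PARP10), 2 without GIRK1 replicate 1 (DTX3L and PARP10) and 1 without GIRK1 replicate 2 (PARP10). Against WT replicate 2 it was 4 without eGFP replicate 1, 5 without eGFP replicate 2 and 2 without GIRK1 replicate 1. Listed genes called numbered 4 and ranged up to 16, while all genes called higher ranged from 86 to 1320 and lower from 72 to 1517, the highest counts being those without eGFP replicate 2. These counts of listed genes and of all genes are those of GIRK1 against eGFP. The fitted log2 fold change of PARP9 against eGFP ranged from 4.19 to 6.01, and that of PARP14 from 1.72 to 2.09. Over all settings, 281 single log2 fold changes stayed on their side of the threshold, 20 lost it, 29 gained it and 0 changed sign. The cause of these changes was not tested. Differences between replicates 1 and 2 correlated over genes at 0.194 for eGFP and GIRK1, 0.142 for eGFP and WT and 0.0416 for GIRK1 and WT. Those with WT rest on WT replicate 1, which stood apart. Whether replicate numbers pair the libraries was therefore not settled, and the main fit assumed no pairing. eGFP against WT replicate 2 called 0 members in every setting.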
